A study of Homo sapiens with 9 samples.

Results

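The long noncoding RNAs with a conventional name were examined in A375 cells, a human melanoma cell line, in which SPANX was knocked down (the SPANX proteins belong to the cancer-testis antigens, found mainly in the testis and in tumours). Members were chosen by symbol: LINC with a number, SNHG with a number, MIR host genes, symbols ending in -AS with a number, and MALAT1, NEAT1, GAS5, H19, MEG3 and KCNQ1OT1. A member also had to stand above 0 in all 3 groups. That left 269 genes of the 13825 tested and of 60420 gene IDs in the files. They comprise 84 LINC genes, 15 snoRNA host genes (SNHG genes and GAS5), 7 miRNA host genes, 160 antisense genes and 3 single named genes (MALAT1, NEAT1 and KCNQ1OT1). In all, 1500 IDs carry a matching symbol. Of these, 1181 stood at 0 in all 9 libraries. Another 11 were above 0 only in EV and KD 86 libraries and 39 only in KD 87 libraries. No matching ID was at 0 throughout EV alone or KD 86 alone. A gene near 0 only with KD 87 could thus be left out, as could one near 0 in both EV and KD 86 libraries. One near 0 only in EV or only with KD 86 could be kept through the other group. What part this has in the member counts was not tested. Whether the authors set low groups to 0 is not given in the sources used here. H19 and MEG3 were not among the members.

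The study holds 3 groups of 3 libraries each, all from A375 cells 7 days after knockdown: an EV control, and SPANX knockdown labelled SPANX KD 86 or SPANX KD 87, the constructs KD 86 and KD 87. The labels do not spell out EV, name the kind of knockdown or say whether replicates are separate cultures, so each p-value reflects the variation among these libraries only, which may be technical. The QuantSeq 3' mRNA-Seq FWD assay read transcript ends, which captures RNA with a poly(A) stretch, at 11.31 to 15.57 M recovered reads (M stands for 1e6) per library. SPANXC and SPANXD, transcripts of the SPANX family, were lower with both constructs. The group labels name SPANX but no single SPANX gene. SPANXC was 5.78-fold lower with KD 86 and 12.2-fold with KD 87 (adjusted p = 0.00371 and 0.00335; between the constructs 0.149). SPANXD was lowest with KD 86, at 102.2, 27.4 and 97 normalised reads in EV libraries, 0.969, 0.878 and 0 with KD 86 and 5.25, 5.99 and 7.13 with KD 87 (adjusted p = 1.45e-04 and 0.00804; between the constructs 0.0172). The KD 86 values of SPANXD rest on 1, 1 and 0 reads. These 2 genes are close copies of each other, so how reads were split between them is uncertain. Of 8 melanocyte and melanoma markers, SOX10, MITF, PMEL and S100B were above 0, and MLANA, TYR, DCT and TYRP1 stood at 0 in all libraries. SOX10, a neural crest transcription factor, rose with both constructs, from 3594 ± 1997 in EV libraries to 15720 ± 3543 with KD 86 and 9667 ± 2261 with KD 87 (SD, n = 3 each; adjusted p = 0.00112 and 0.0223), and MITF, PMEL and S100B were not called. Leukocyte and endothelial markers were all at 0, and of the 4 epithelial ones KRT14 alone was above 0, at 299 ± 71.8 normalised reads in EV libraries, 83.4 ± 32.9 with KD 86 and 452 ± 128 with KD 87. What part these differences have in the results was not tested, and in bulk samples fewer cells with an RNA and less of it per cell cannot be told apart.

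Long noncoding RNAs are transcripts with no known protein that act as RNA, as the act of transcription itself, or as carriers of smaller RNAs. Small nucleolar RNAs (snoRNAs), which guide chemical modification of ribosomal RNA, are mostly cut from the introns of host genes, and many spliced SNHG transcripts are then degraded by nonsense-mediated decay. MIR host genes carry the hairpins from which microRNAs (miRNAs) are cut, in exons or introns. NEAT1 builds nuclear paraspeckles, MALAT1 lies in nuclear speckles, and NORAD, listed here under its older symbol LINC00657, is a cytoplasmic RNA induced by DNA damage. Antisense genes are named after a protein-coding gene on the opposite strand, with which many share a promoter region.

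Several sequences show what these RNAs carry. For the miRNA genes in the 3 hosts described below, 1 mature arm each is given from RefSeq (GRCh38.p14), with the seed, bases 2 to 8, in capitals, because a host's miRNAs are sorted by their seeds.
hsa-miR-22-3p: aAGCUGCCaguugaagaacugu
hsa-miR-31-5p: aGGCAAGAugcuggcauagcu
hsa-miR-17-5p: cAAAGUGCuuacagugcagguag
hsa-miR-20a-5p: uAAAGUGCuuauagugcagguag
hsa-miR-18a-5p: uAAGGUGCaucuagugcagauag
hsa-miR-19a-3p: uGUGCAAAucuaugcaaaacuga
hsa-miR-19b-3p: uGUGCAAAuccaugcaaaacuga
hsa-miR-92a-3p: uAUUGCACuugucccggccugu
The first comes from MIR22HG, the second from MIR31HG and the other 6 from MIR17HG, and among the arms shown miR-17-5p and miR-20a-5p share one seed and miR-19a-3p and miR-19b-3p another. The miRNAs themselves were not measured, since the libraries hold poly(A) transcripts.

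Genes of the translation machinery and several snoRNA hosts begin with a run of pyrimidines, the 5' terminal oligopyrimidine tract. The start regions of 5 hosts are shown from 10 bases before to 20 bases from the RefSeq start (GRCh38.p14), with the longest run of C or T in capitals.
SNHG1: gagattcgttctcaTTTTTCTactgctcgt
SNHG12: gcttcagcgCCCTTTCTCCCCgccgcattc
SNHG17: gtgtggcctcagTCCTTCgccgtccctcgc
SNHG3: gtgagtttctgaTTCTCTaactgcgcatgc
SNHG10: cttatgccggagCCTCatcctactgcctta
They lie at chr11:62855866-62855895 (minus strand), chr1:28581854-28581883 (minus), chr20:38435309-38435338 (minus), chr1:28505933-28505962 (plus) and chr14:95534853-95534882 (minus). A run of at least 6 pyrimidines stood in this window of 10 of the 13 start regions matched for the snoRNA hosts and for FAM211A-AS1, now named SNHG29 (76.9%), against 30.4% of 35116 start regions in the table. The window reaches before the start, and the runs of SNHG14, SNHG7 and FAM211A-AS1 end before it. The count is thus of runs near the start, not of transcripts that begin with such a tract. SNHG17 and SNHG3 have such a run and SNHG10 does not, and all 3 fell with KD 86.

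With KD 86, the named long noncoding RNAs were more often lower than higher. Of 269 members, 17 rose and 75 fell against EV (limma, adjusted p under 0.05), or 6.32% and 27.9%, where 18.0% of all genes tested rose and 17.6% fell (35.7% called in either direction). The median log2 fold change was -0.58 over the members and -0.04 over all genes. With KD 87, 10 members rose and 4 fell, or 3.72% and 1.49%, against 5.91% and 4.43% of all genes (10.3% called), with a median of 0.10 and 0.00. Both comparisons use the same EV libraries. Set directly against each other, KD 87 libraries were higher than KD 86 libraries for 80 members and lower for 14 (29.7% and 5.20%), where 12.7% and 12.9% of all genes were (25.6% called), and the median difference was 0.55 over the members and 0.02 over all genes.

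Library behaviour bears on these counts. Same-numbered libraries of the 3 groups deviated together, and with the replicate number as a block 30 members rose and 117 fell with KD 86 (55.3% of all genes called), 35 rose and 26 fell with KD 87 (31.0%, with 16.1% higher), and 117 were higher and 25 lower with KD 87 than with KD 86 (44.1%). The KD 87 count against EV depends on single libraries: without EV replicate 1 it was 3 higher and 2 lower (3.77% of all genes called), without EV replicate 2 it turned to 9 higher and 17 lower (18.4%), without KD 87 replicate 1 it was 1 and 1 (2.67%), and without KD 87 replicate 2 it was 3 and 2 (4.4%), where the full set had 10.3% of all genes called. Values also moved with transcript length, by -0.136 to 0.262 log2 per doubling in the EV libraries, 0.2 to 0.388 with KD 86 and -0.0125 to 0.23 with KD 87. The members are shorter than all genes tested (median 2329 against 3281 bases). With that trend removed 35 members rose and 75 fell with KD 86 (37.0% of all genes called; median -0.35), 20 rose and 6 fell with KD 87 (14.7%, with 7.41% higher and 7.27% lower), and 79 were higher and 21 lower with KD 87 than with KD 86 (29.8%). Without any test, KD 86 libraries lay wholly above the EV libraries for 29 members and wholly below for 95 (22.5% and 22.9% of all genes). For KD 87 the numbers were 45 and 28 (15.3% and 14.0%), and for KD 87 against KD 86 they were 117 and 25 (22.9% and 22.4%).

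**Figure D1:**
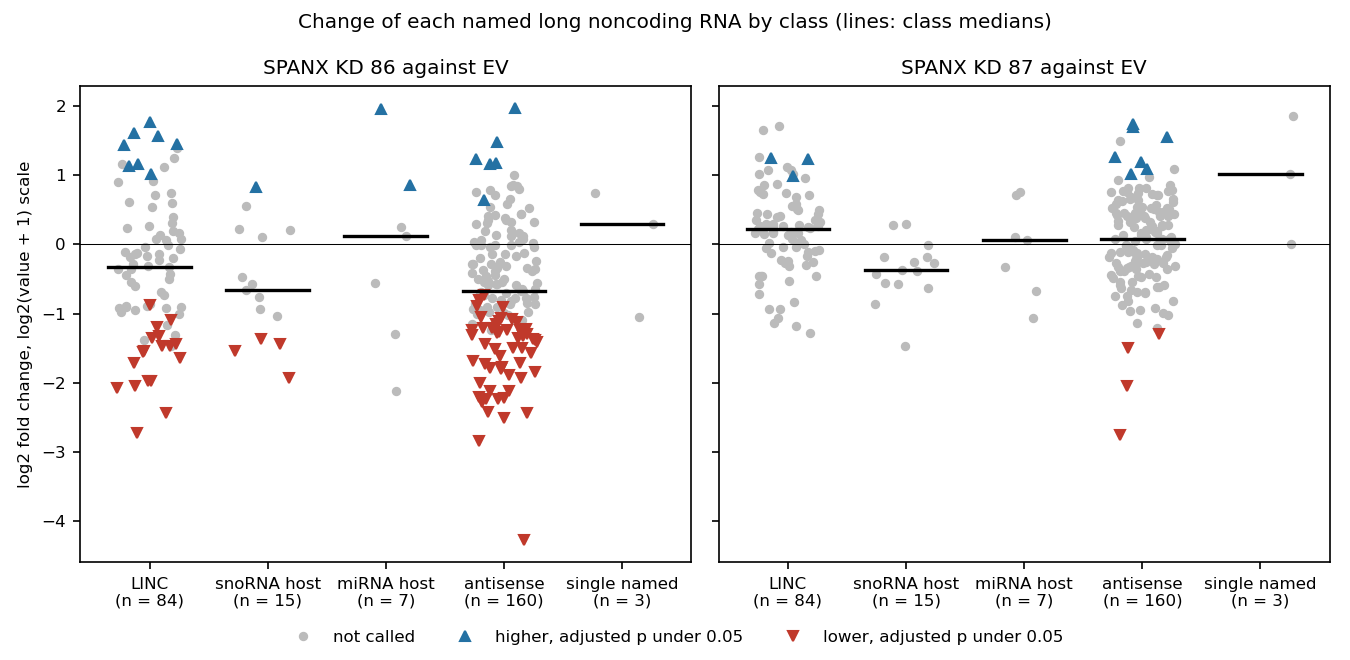
Log2 fold change of each member against EV, on the log2(value + 1) scale (vertical axis), by class (horizontal axis), for KD 86 (left) and KD 87 (right). Each point is 1 gene, coloured triangles passed the test, and black lines are class medians; with KD 86 the antisense class holds 53 of the 75 falls, and with KD 87 few points are coloured.

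The members were also split by gene structure, a split chosen after the values were seen and whose difference was not tested. Of 29 members whose longest transcript has 1 exon, 2 rose and 13 fell with KD 86 (6.9% and 44.8%, median log2 fold change -1.05), and 18 were higher with KD 87 than with KD 86 (62.1%). Of all genes tested 12.7% were higher with KD 87 than with KD 86. Among genes with 1 exon that share was 31.0% of 239 other long noncoding RNA genes and 33.6% of 274 protein-coding genes. Members with 2 or more exons numbered 238, of which 15 rose and 61 fell (6.3% and 25.6%, median -0.54). Outside the members, 201 of 731 other long noncoding RNA genes of GENCODE v29 fell and 42 rose (27.5% and 5.75%). Among protein-coding genes with 1 exon 87 of 274 fell and 27 rose (31.8% and 9.85%), while over 12255 protein-coding genes 16.9% fell and 19.6% rose. Protein-coding genes with a mean of 20 to 100 normalised reads fell in 15.9% and rose in 19.4% of 1745 cases. Members of the same level range fell in 27.0% and rose in 5.84% of 137 cases.

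**Figure D2:**
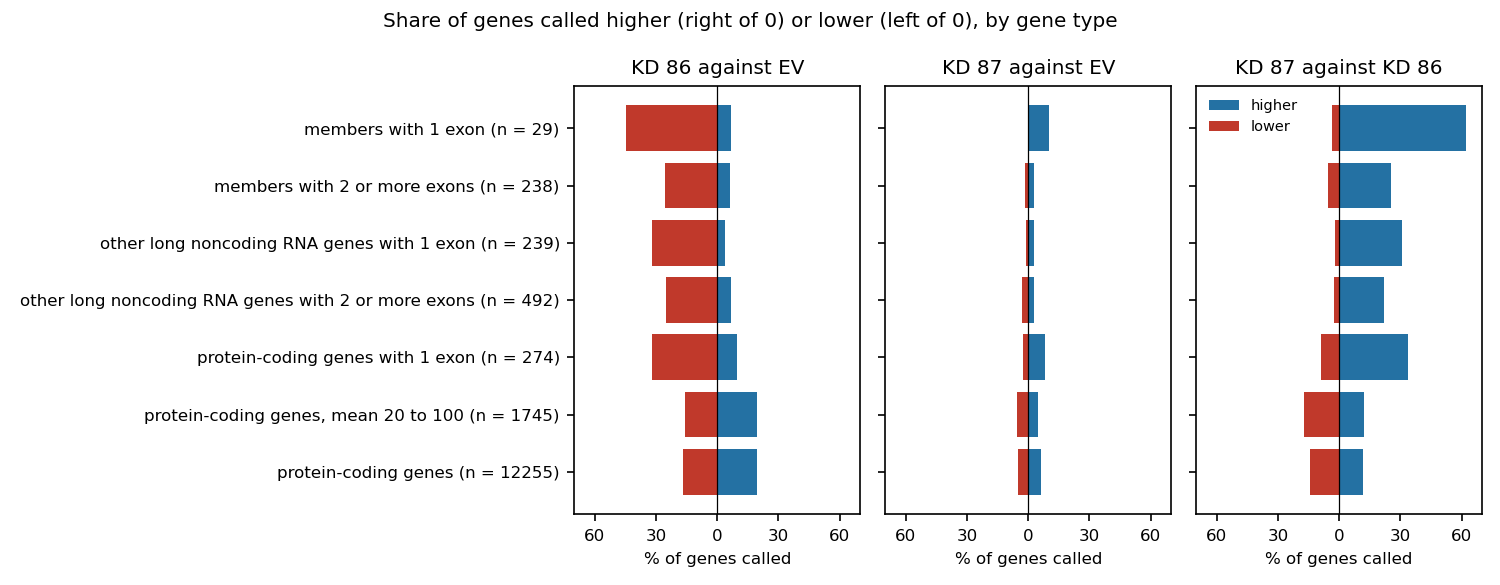
Percent of genes called (horizontal axis), higher to the right of 0 and lower to the left, for gene types split by exon number or level (rows, with the number of genes), in the 3 comparisons (panels). Members with 1 exon have the longest bar for falls with KD 86 (44.8%) and for higher levels with KD 87 than with KD 86 (62.1%), and the bars of other long noncoding RNA genes lean the same way.

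The order of the replicates is given for the members beside that over all genes. The third EV library held the highest EV level for 59.5% of members (30.3% of all genes) and the second the lowest for 58.7% (35.3%). Replicate 3 was also the highest of its group for 55.4% of members with KD 86 and 51.3% with KD 87, against 33.6% and 38.4% of all genes. The share of reads on members was 1.08%, 0.716% and 1% in the 3 libraries numbered 3, and 0.437% to 0.64% in the other 6. Reads on 14 mitochondrial genes made up 0.0416% to 0.0496% of the libraries numbered 3 and 0.00829% to 0.0338% of the others. What part these library differences have in the member results was not tested.

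The snoRNA host genes had a median level of 1096 normalised reads, against 62.2 over all members and 409 over all genes. The GENCODE v29 annotation places 118 snoRNA genes inside 14 of the 15, of which 84 lie in SNHG14. None was placed in GAS5 although it is a host, so the count may be incomplete. With KD 86, SNHG3, SNHG10, SNHG15 and SNHG17 fell and SNHG14 rose, and the class median was -0.66 (-0.25 with the length trend removed). These calls are 26.7% lower and 6.67% higher, where 17.6% of all genes fell and 18.0% rose. The share called in either direction, 33.3%, was near the 35.7% of all genes. With the replicate block 2 hosts rose and 8 fell with KD 86, where 27.0% of all genes rose and 28.3% fell. With KD 87, none of the 15 passed the limma test, where 10.3% of all genes did, while 3 had an unadjusted p under 0.05 and 3 fell with the replicate block (SNHG3, SNHG10 and SNHG15; 14.8% of all genes did). The class median there was -0.37. Summed over the class, the level was 23740 ± 10750 in EV libraries, 19760 ± 4169 with KD 86 and 19940 ± 5447 with KD 87 (SD, n = 3 each), so the sums differed by less than the spread of the EV libraries.

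SNHG17, the host of 5 snoRNA genes in the annotation, mostly of the SNORA71 family, stood at 1682, 1356 and 1583 normalised reads in the EV libraries, 628.6, 555.2 and 608.5 with KD 86, and 950, 1212 and 1291 with KD 87. The 3 groups did not overlap. It was 2.57-fold lower with KD 86 (log2 -1.36 ± 0.18 SE, adjusted p = 4.8e-04), and the difference of -0.43 with KD 87 did not pass (adjusted p = 0.159). The constructs differed from each other by 0.93 (adjusted p = 0.00428). SNHG3, host of SNORA73A and SNORA73B, measured 895.6, 627.6 and 1591 in the EV libraries, 255.7, 315.3 and 442 with KD 86, and 438.2, 549.8 and 981.5 with KD 87. Only its KD 86 libraries lay clear of the EV libraries, at 2.92-fold lower (adjusted p = 0.0105). With KD 87 its log2 fold change was -0.64 (adjusted p = 0.308, or 0.0264 with the replicate block), and the difference between the constructs was called with that block (adjusted p = 0.106 and 0.00274).

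SNHG10, which carries SCARNA13, a guide RNA of the Cajal body, had the largest fall of its class: 150, 62.1 and 153 normalised reads in the EV libraries, 25.2, 22 and 43.4 with KD 86, and 21, 42 and 71.3 with KD 87. That is 3.80-fold lower with KD 86 (adjusted p = 0.0127), a call lost without EV replicate 1 (adjusted p = 0.0561) or KD 86 replicate 2 (adjusted p = 0.0521). The 2.78-fold lower value with KD 87 had an adjusted p of 0.0843, and 0.0113 with the block. SNHG15, host of SNORA9, fell 2.72-fold with KD 86 (from 607 ± 234 to 213 ± 46.3, SD, n = 3 each, adjusted p = 0.0114). Its value with KD 87 was 331 ± 130, a log2 fold change of -0.86 with an adjusted p of 0.153, or 0.021 with the block. SNHG14, a long transcript across the imprinted Prader-Willi region, rose 1.77-fold with KD 86, from 993.5 ± 343 to 1709 ± 268 (adjusted p = 0.0267), and stood at 1181 ± 177 with KD 87 (adjusted p = 0.481); it is named as the one host that rose, after its values were seen.

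GAS5, a host whose spliced RNA is known to build up when translation is blocked or growth stops, was the most abundant of the class. Its levels were 5184, 2308 and 11500 normalised reads in the EV libraries, 7430, 4047 and 7111 with KD 86, and 6408, 4401 and 8652 with KD 87. All 6 knockdown values lay within the EV range, and the log2 fold changes of 0.21 ± 0.50 and 0.28 ± 0.50 (SE) did not pass (adjusted p = 0.769 and 0.759). Their sign turned without EV replicate 2, to -0.37 and -0.31. SNHG5 and SNHG6, the next in level, had log2 fold changes of -0.58 and 0.10 with KD 86 (adjusted p = 0.465 and 0.878), and of -0.18 and -0.26 with KD 87 (adjusted p = 0.874 and 0.74). With the length trend removed SNHG6 was called with KD 86 at 0.70 (adjusted p = 0.0464), while without EV replicate 2 it was -0.47 (adjusted p = 0.239) and SNHG5 was called at -1.345 (adjusted p = 0.0178). EV replicate 2 held the lowest EV level for 13 of the 15 hosts, and KD 87 replicate 3 the highest KD 87 level for 14.

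**Figure D3:**
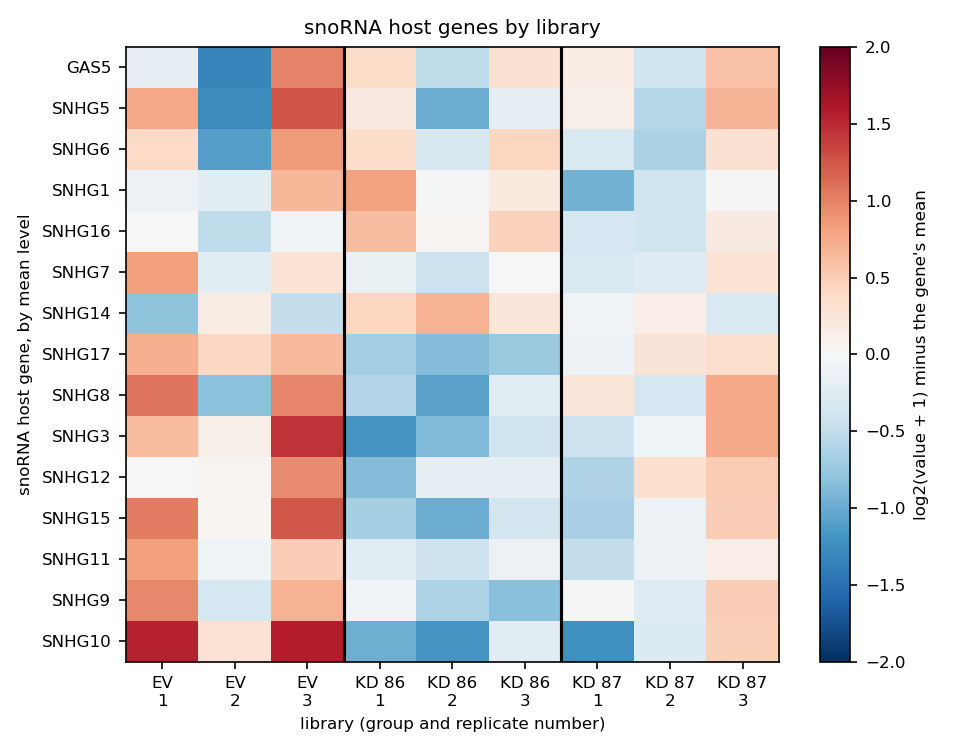
The 15 snoRNA host genes (rows, ordered by mean level) in the 9 libraries (columns, by group and replicate number), coloured by log2(value + 1) minus the gene's mean over the 9 libraries. EV replicate 2 is pale or blue for most hosts, at 2308 normalised reads for GAS5 against 5184 and 11500 in the other EV libraries, and SNHG17, SNHG3, SNHG15 and SNHG10 are blue in all 3 KD 86 libraries.

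Proteins that work on the hosted RNAs were compared from lists of genes. Of 12 proteins that bind or assemble snoRNAs, 8 fell and none rose with KD 86 (median log2 fold change -0.94). With KD 87, 1 fell and none rose (median -0.56), and with the replicate block 10 fell with KD 86 and 8 with KD 87. Of all genes tested 17.6% fell with KD 86 and 4.43% with KD 87, or 28.3% and 14.8% with the block. DKC1, the pseudouridine synthase of H/ACA snoRNAs, fell 2.54-fold with KD 86 (adjusted p = 6.11e-04) and its KD 87 value was -0.48 on the log2 scale (adjusted p = 0.129). NOP56, a core protein of the box C/D particles, fell with both, 2.19-fold (adjusted p = 0.00105) and 1.61-fold (adjusted p = 0.0336). RUVBL1 and RUVBL2, ATPases that help assemble both kinds of particle, fell 2.22-fold and 2.44-fold with KD 86 (adjusted p = 0.00229 and 8.66e-04).
Decay proteins were compared in the same way. Of all genes tested 18.0% rose and 17.6% fell with KD 86, and 5.91% and 4.43% with KD 87. With the replicate block these shares were 27.0% and 28.3%, and 16.1% and 14.8%. Whether a list differs from these shares was not tested. Of 8 nonsense-mediated decay factors, UPF3A and UPF3B fell with KD 86 (1.71-fold and 2.08-fold, adjusted p = 0.0241 and 0.0284) and none was called by limma with KD 87 (0 of 8 at an unadjusted p under 0.05). With the replicate block 3 rose and 2 fell with KD 86, and 1 fell with KD 87. Of 14 subunits and cofactors of the nuclear exosome, which degrades many unstable noncoding transcripts, 5 fell with KD 86 and 2 with KD 87 (6 with the replicate block). EXOSC6, itself a gene with 1 exon, fell 3.34-fold with KD 86 (adjusted p = 1.99e-04) and its KD 87 value was 0.08 on the log2 scale (adjusted p = 0.821). EXOSC8 fell 2.90-fold with KD 86 (adjusted p = 0.0035), and EXOSC5 and EXOSC9 fell with both constructs, by 2.02-fold to 2.47-fold (adjusted p = 0.00745 to 0.033).

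Among the 7 miRNA hosts, MIR22HG and MIR31HG rose with KD 86, so 28.6% of the class was called, against 35.7% of all genes. None was called by limma with KD 87, where 10.3% of all genes were, and 3 had an unadjusted p under 0.05. The replicate block gave 2 higher and 2 lower with KD 86 (27.0% and 28.3% of all genes). For KD 87 it gave 2 and 1 (16.1% and 14.8%). MIR22HG, the host of the miR-22 shown above and a gene induced in many stress states, stood at 356.7, 266.8 and 510.9 normalised reads in the EV libraries, 1279, 1335 and 1639 with KD 86, and 519.1, 553.2 and 750.4 with KD 87. The groups did not overlap, with EV lowest and KD 86 highest. It was 3.85-fold higher with KD 86 (log2 1.95 ± 0.25 SE, adjusted p = 4.28e-04). With KD 87 the log2 fold change was 0.71 (adjusted p = 0.0981, or 0.00764 with the replicate block), and KD 87 libraries were 2.35-fold below KD 86 libraries (adjusted p = 0.00573). The summed level of the class was 797 ± 381 in EV libraries, 1688 ± 256 with KD 86 and 948 ± 225 with KD 87; without MIR22HG the sums were 419, 270.5 and 340.

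MIR31HG, which lies beside the CDKN2A locus and has been studied in senescence and melanoma, measured 35.6, 61.2 and 44.2 in the EV libraries, 65.9, 92.2 and 97.3 with KD 86, and 34.7, 26.6 and 24.4 with KD 87. Its KD 87 libraries were all below all EV libraries and its KD 86 libraries all above. The rise of 1.81-fold with KD 86 was close to the threshold (adjusted p = 0.0491). It was lost with the deposited values left unscaled (adjusted p = 0.0539) and without any 1 of EV replicate 1, EV replicate 3, KD 86 replicates 2 and 3 and the 3 KD 87 libraries (adjusted p = 0.0553 to 0.154). The difference between the constructs, -1.54 on the log2 scale for KD 87 against KD 86, passed the limma test (adjusted p = 0.00465). With KD 87 alone the log2 fold change was -0.68 (adjusted p = 0.178).
MIR17HG, the host of the miR-17-92 cluster and a target of MYC, was uneven between replicates: 76.7, 86.8 and 459 in the EV libraries, 15.5, 24.6 and 89.1 with KD 86, and 15.8, 95.9 and 209 with KD 87. The third library was the highest in each group. Its log2 fold changes of -2.12 and -1.07 did not pass (adjusted p = 0.111 and 0.509) and did with the replicate block (adjusted p = 6.62e-04 and 0.0478).
Of 8 proteins that cut, export or load miRNAs, DICER1 rose 2.41-fold (adjusted p = 0.0211) and XPO5 fell 1.76-fold (adjusted p = 0.0369) with KD 86. By limma none of the 8 was called with KD 87 (0 at an unadjusted p under 0.05), and 2 rose there with the replicate block. Of all genes tested 18.0% rose and 17.6% fell with KD 86. With KD 87 10.3% were called, and 16.1% rose with the block.

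Among the 84 LINC genes, 8 rose and 18 fell with KD 86 (median log2 fold change -0.33), and 3 rose and none fell with KD 87 (median 0.23). With KD 86 31.0% of the class was called, against 35.7% of all genes, and 21.4% fell, against 17.6%. With KD 87 3.57% was called, against 10.3%. With the replicate block the counts were 15 and 31 with KD 86 (27.0% and 28.3% of all genes), and 13 and 5 with KD 87 (16.1% and 14.8%). KD 87 libraries were above KD 86 libraries for 25 and below for 5 (29.8% and 5.95%, against 12.7% and 12.9% of all genes). NORAD (LINC00657, ENSG00000260032.1), a single-exon RNA needed for stable chromosome numbers, was the most abundant. Its levels were 5284, 7984 and 5048 normalised reads in the EV libraries, 915.3, 1636 and 2334 with KD 86, and 8919, 8521 and 7905 with KD 87. Every KD 86 library lay below every EV library, and KD 87 replicate 3 lay just below the highest EV library. NORAD was 3.93-fold lower with KD 86 (log2 -1.98 ± 0.32 SE, adjusted p = 0.0012) and its log2 fold change with KD 87 was 0.50 (adjusted p = 0.336). The constructs differed 5.56-fold (adjusted p = 5.29e-04). Summed over the class, the LINC level was 20060 ± 1972 in EV libraries, 12410 ± 1674 with KD 86 and 23200 ± 1749 with KD 87 (SD, n = 3 each). Without NORAD the sums were 13960 ± 3350, 10780 ± 1092 and 14750 ± 1957.

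The naming rule gave 4 other LINC genes, which fell by more than NORAD with KD 86. LINC00938, which also has 1 exon, was at 254.5, 138.9 and 272.7 in the EV libraries, 33.9, 38.7 and 92.6 with KD 86, and 256, 216 and 299 with KD 87. It was 4.23-fold lower with KD 86 (adjusted p = 0.00269), and KD 87 libraries were 5.06-fold above KD 86 libraries (adjusted p = 0.00193). LINC00176, now listed as the coding gene C20orf204, fell 6.61-fold, from 43.8 ± 28 to 6.54 ± 6.53 (adjusted p = 0.0103). LINC00326 fell 5.38-fold, from 331.5 ± 273.5 to 49.4 ± 18.6 (adjusted p = 0.00962). LINC00467 fell 4.12-fold, from 184 ± 121 to 38 ± 12.2 (adjusted p = 0.00883). Their KD 87 levels were 36.1 ± 20.7, 205 ± 91.7 and 153 ± 42.9, with log2 fold changes against EV of -0.26, -0.46 and -0.06 (adjusted p = 0.833, 0.644 and 0.955). The constructs differed for these 3 (adjusted p = 0.0209, 0.032 and 0.013). That call was lost for LINC00176 without KD 86 replicate 1 or 2 or KD 87 replicate 2 or 3 (adjusted p up to 0.0804), for LINC00326 without KD 86 replicate 1 or 2 or KD 87 replicate 1 or 3 (adjusted p up to 0.106), and for LINC00467 without KD 86 replicate 1 (adjusted p = 0.0515).

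The 3 LINC genes that rose with KD 87 were PURPL, LINC00984 and LINC00941. PURPL (LINC01021), a p53-induced RNA that restrains p53 levels, stood at 41.1, 28.3 and 52.8 normalised reads in the EV libraries, 66.8, 47.4 and 87.9 with KD 86, and 90.4, 77.1 and 122 with KD 87. Within each replicate number the order was EV, KD 86, KD 87. The rise of 2.36-fold with KD 87 passed (adjusted p = 0.0394) but was lost without EV replicate 1 or 2, KD 86 replicate 1 or any 1 of the KD 87 libraries (adjusted p = 0.0531 to 0.123). With KD 86 the log2 fold change was 0.71 (adjusted p = 0.118, or 0.0155 with the block). LINC00984, now the coding gene INAFM2 and of 1 exon, was at 347.8, 307.9 and 272.7 in the EV libraries, 209, 329 and 370.5 with KD 86, and 799, 676 and 699.5 with KD 87. It was 2.34-fold higher with KD 87 (adjusted p = 0.0103, lost without KD 87 replicate 1 at 0.0569) and 2.45-fold above KD 86 (adjusted p = 0.00294). LINC00941 rose 1.97-fold with KD 87, from 205 ± 24.5 to 417 ± 132 (adjusted p = 0.0335), with no call without EV replicate 1 or 3 or KD 87 replicate 1 or 2 (adjusted p = 0.0634 to 0.144). It was above KD 86 by 1.12 on the log2 scale (adjusted p = 0.00866), a call lost with the length trend removed (0.905, adjusted p just over 0.05). LINC01029, second in level, had log2 fold changes of -0.69 and -0.31 (adjusted p = 0.0626 and 0.478), the first called with the block (adjusted p = 0.00471).

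**Figure D4:**
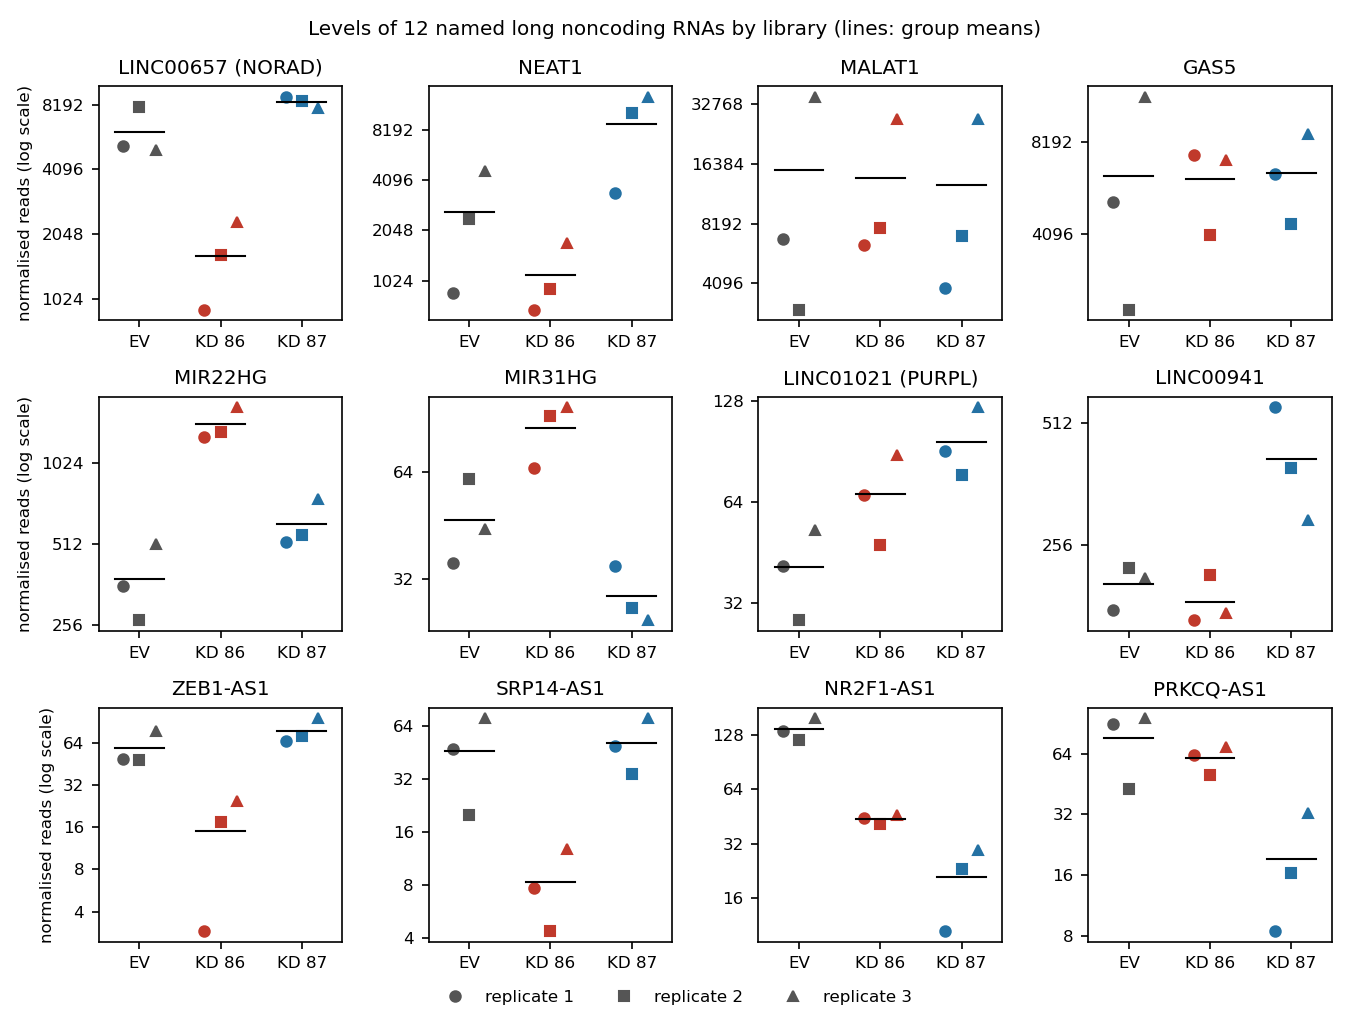
Normalised reads (vertical axes, log scale) of 12 members in each library, by group (horizontal axes), with symbols for the replicate number and lines for group means. NORAD lies at 915.3 to 2334 in the KD 86 libraries and at 5048 or above in the other 6, while in the MALAT1 panel replicate 3 stands above replicates 1 and 2 in each group.

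NEAT1, the scaffold of paraspeckles and a p53 target, measured 871, 2384 and 4609 normalised reads in the EV libraries, 690, 918 and 1715 with KD 86, and 3404, 10220 and 12870 with KD 87. KD 87 libraries were all above KD 86 libraries, while both overlapped the EV range. The constructs differed 7.44-fold (log2 2.89 ± 0.63 SE, adjusted p = 0.00734). Against EV the log2 fold changes were -1.05 with KD 86 (adjusted p = 0.215) and 1.85 with KD 87 (adjusted p = 0.0865), and both were called with the replicate block (adjusted p = 0.00219 and 3.09e-04). The second was also called without EV replicate 3 (adjusted p = 0.0463). Within each replicate number NEAT1 was lowest with KD 86 and highest with KD 87.
MALAT1 stood at 6889, 3027 and 35590 in the EV libraries, 6400, 7797 and 27380 with KD 86, and 3885, 7115 and 27330 with KD 87. Its replicates of 1 group spanned a wider range than the group means, and its log2 fold changes of 0.29 ± 0.93 and 0.01 ± 0.93 (SE) did not pass (adjusted p = 0.829 and 0.997). KCNQ1OT1, the RNA of an imprinted domain, was at 22.2, 44.8 and 86.2 in the EV libraries, 54.2, 83.5 and 90.3 with KD 86, and 105, 76.2 and 92.7 with KD 87. Its log2 fold changes were 0.73 and 1.02 (adjusted p = 0.208 and 0.157), the second called with the block (adjusted p = 0.0419) and both without EV replicate 3 (adjusted p = 0.038 and 0.0429).
Of 13 paraspeckle and speckle proteins, 5 fell and none rose with KD 86, and 1 fell with KD 87. With the replicate block 2 rose and 7 fell with KD 86, and 2 fell with KD 87. Of all genes tested 17.6% fell with KD 86 and 4.43% with KD 87. With the block 27.0% rose and 28.3% fell with KD 86, and 14.8% fell with KD 87. CPSF6 and NONO, both paraspeckle proteins, were 1.78-fold and 1.56-fold lower with KD 86 (adjusted p = 0.00401 and 0.0312). The splicing factors SRSF1 and SRSF2 were 1.55-fold and 2.14-fold lower (adjusted p = 0.0255 and 0.00332). SRSF2 was also 1.71-fold lower with KD 87 (adjusted p = 0.0448).

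The antisense class held most of the falls. Of 160 members, 6 rose and 53 fell with KD 86 (median log2 fold change -0.68), and 7 rose and 4 fell with KD 87 (median 0.08). With KD 86 these are 3.75% and 33.1% of the class, against 18.0% and 17.6% of all genes. With KD 87 6.88% of the class was called, below the 10.3% of all genes, and the replicate block gave 18 higher and 17 lower (16.1% and 14.8% of all genes). KD 87 libraries were higher than KD 86 libraries for 53 and lower for 7 (33.1% and 4.38%, against 12.7% and 12.9%). FAM211A-AS1, now SNHG29, is a snoRNA host by its present name and held more reads than any other of the class. Its levels were 12980, 5626 and 18980 in the EV libraries, 8978, 5625 and 7991 with KD 86, and 10390, 7813 and 12840 with KD 87. Its log2 fold changes were -0.59 and -0.14 (adjusted p = 0.268 and 0.854), the first called with the block (adjusted p = 0.0403) and without EV replicate 2 (adjusted p = 0.0118). The summed class level was 34730 ± 10810 in EV libraries, 25440 ± 2624 with KD 86 and 33340 ± 4707 with KD 87, and 22200, 17910 and 22990 without that gene.

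A sense partner was tested for 136 of the antisense members (135 different partners). With KD 86, 3 of these antisense RNAs rose and 49 fell (median log2 fold change -0.77), while 32 of the partners rose and 18 fell (median 0.10). Of the 135 partners 23.7% rose and 13.3% fell, against 18.0% and 17.6% of all genes tested. In 35 pairs the antisense RNA fell and the partner was not called, in 7 both fell, in 2 both rose, and in 7 the antisense RNA fell while the partner rose (FOXD2, PTPRG, PXN, SBF2, TMCC1, USP46 and ZEB1). No pair had the antisense RNA higher and the partner lower, but only 3 of these antisense RNAs rose at all. Across the 136 pairs the log2 fold changes of both genes had a Pearson correlation of 0.0975 with KD 86. Whether opposite calls are more frequent than between unrelated genes was not tested. In 70 pairs the 2 genes start within 1000 bases of each other in GENCODE v29, and there 27 antisense RNAs fell and 3 rose, against 7 and 14 of the partners. With KD 87, where 10.3% of all genes tested were called, neither gene was called in 117 of the 136 pairs. The Pearson correlation across the pairs was 0.335 there. Whether counting used strand is not given in the sources used here, so without it reads of a gene and of its antisense partner cannot be told apart where their exons overlap.

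**Figure D5:**
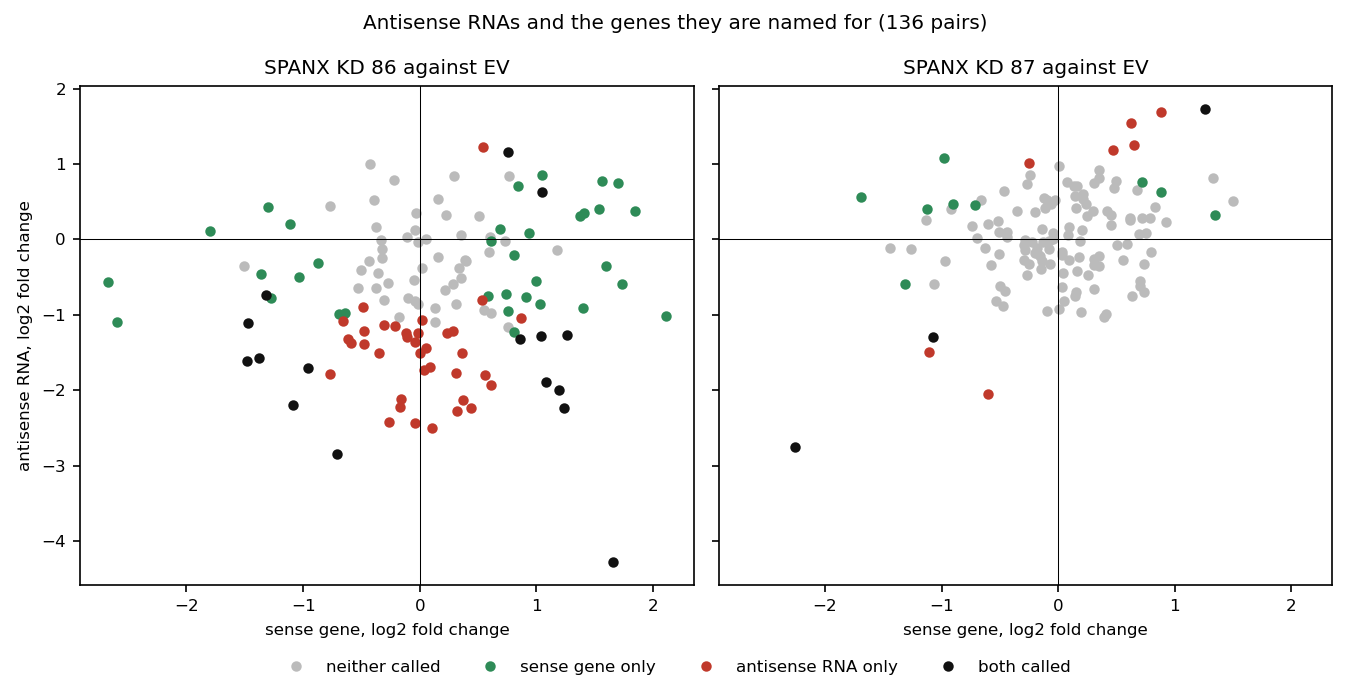
Log2 fold change against EV of each antisense member (vertical axis) and of the gene it is named for (horizontal axis), for KD 86 (left) and KD 87 (right), over 136 pairs. With KD 86 the points lie mostly below 0 on the vertical axis (median -0.77) and to both sides of 0 on the horizontal one (median 0.10).

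The USP46 and TMCC1 pairs, with opposite calls, share a start region of under 300 bases and are shown from 250 bases before to 50 from the antisense RNA's RefSeq start (GRCh38.p14, plus strand), with the stretch between both starts in capitals. They lie at chr4:52659156-52659455 and chr3:129893621-129893920.
USP46-AS1: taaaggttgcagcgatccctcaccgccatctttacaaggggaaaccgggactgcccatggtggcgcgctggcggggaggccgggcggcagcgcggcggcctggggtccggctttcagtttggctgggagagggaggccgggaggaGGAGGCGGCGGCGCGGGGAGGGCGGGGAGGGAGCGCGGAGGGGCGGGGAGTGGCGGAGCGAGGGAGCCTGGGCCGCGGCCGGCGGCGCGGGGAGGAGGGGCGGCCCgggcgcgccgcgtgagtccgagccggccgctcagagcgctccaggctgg
TMCC1-AS1: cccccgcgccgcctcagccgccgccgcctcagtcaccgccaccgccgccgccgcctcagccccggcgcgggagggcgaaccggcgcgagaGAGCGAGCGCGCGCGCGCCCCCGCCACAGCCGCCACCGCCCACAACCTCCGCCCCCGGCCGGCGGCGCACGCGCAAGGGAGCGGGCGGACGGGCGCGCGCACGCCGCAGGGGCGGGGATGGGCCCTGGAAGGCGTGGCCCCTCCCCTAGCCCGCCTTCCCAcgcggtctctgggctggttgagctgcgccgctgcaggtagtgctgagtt
Both are rich in the dinucleotide CG, with 39 and 49 in 300 bases. The median was 26.5 over 130 matched antisense members, 14 over 63 matched LINC members and 14 over 27305 genes of the table.
USP46-AS1 was at 31.1, 31.1 and 46.4 normalised reads in the EV libraries, 10.7, 17.6 and 15.2 with KD 86, and 68.3, 49.7 and 39.7 with KD 87. It fell 2.40-fold with KD 86 (adjusted p = 0.0161) while USP46, a deubiquitinase gene, rose 2.40-fold, from 391 ± 40.7 to 944 ± 127 (adjusted p = 0.00121). Between the constructs the pair was also opposite, with USP46-AS1 3.44-fold higher (adjusted p = 0.00393) and USP46 3.80-fold lower with KD 87 (adjusted p = 2.39e-04). TMCC1-AS1 was at 21.1, 15.5 and 42 in the EV libraries, 0, 0 and 1.17 with KD 86, and 20, 18.8 and 42.8 with KD 87. In recovered reads summed over the libraries of each group this is 75 against 1, or 77.9 times as many after scaling. The 95% interval of 13.6 to 3120 (exact by Clopper-Pearson) is for counting error alone and holds no spread between libraries. TMCC1-AS1 stood above 0 with KD 86 through a single read, so the difference is given as a description. It is counted among the 53 antisense falls and the 7 opposite pairs with KD 86. Among matching symbols no ID was at 0 in EV or KD 86 libraries alone, so a KD 86 level near 0 can be kept beside a high EV level. TMCC1 rose 3.15-fold with KD 86, from 147 ± 26.9 to 465 ± 83.1 (adjusted p = 5.16e-04). These pairs were chosen after their values were seen.

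Further antisense RNAs named by the selection rule fell with KD 86, and for 3 of them the partner was not called. FBXL19-AS1 was at 53.3, 125 and 79.8 in the EV libraries, 11.6, 14.9 and 14.1 with KD 86, and 74.6, 84.8 and 39.7 with KD 87. It was 5.67-fold lower with KD 86 (adjusted p = 0.00104), and FBXL19, which encodes a CpG island binding protein, had a log2 fold change of 0.11 (adjusted p = 0.803). PAXIP1-AS1 fell 5.40-fold, from 85.3 ± 26 to 17 ± 11.4 (adjusted p = 0.00245), and SRP14-AS1 4.84-fold, from 46.3 ± 25.6 to 8.35 ± 4.28 (adjusted p = 0.00734). PAXIP1 and SRP14 had log2 fold changes of -0.04 and 0.32 (adjusted p = 0.906 and 0.432). With KD 87 these 3 antisense RNAs had log2 fold changes of -0.36, 0.10 and 0.26 (adjusted p = 0.587, 0.909 and 0.777). The constructs differed for each, by 4.43-fold, 5.79-fold and 5.81-fold (adjusted p = 0.00295, 0.00264 and 0.00549).
ATP6V0E2-AS1 had the largest fall by the rule, at 77.8, 73.1 and 43.1 in the EV libraries, 5.81, 8.78 and 9.38 with KD 86, and 38.9, 36.8 and 26.5 with KD 87. It fell 7.19-fold with KD 86 (adjusted p = 3.37e-04), and ATP6V0E2, a proton pump subunit gene, also fell, by 1.63-fold (adjusted p = 0.0182). ZEB1-AS1 was at 48.9, 48.4 and 77.6 in the EV libraries, 2.91, 17.6 and 24.6 with KD 86, and 66.2, 71.1 and 95.7 with KD 87. It fell 4.71-fold with KD 86 (adjusted p = 0.015, lost without EV replicate 3 at 0.0523), and ZEB1, a transcription factor of the mesenchymal state, rose 2.35-fold (adjusted p = 0.00924).

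NR2F1-AS1 and TMPO-AS1 were the members that fell with both constructs, and MMP24-AS1 the one that rose with both, without the replicate block. With it, 18 members fell with both, among them SNHG3, SNHG10, SNHG15 and MIR17HG, and 11 rose with both, among them MIR22HG, PURPL and ARHGAP5-AS1. The block called 55.3% of all genes with KD 86 and 31.0% with KD 87, against 35.7% and 10.3% without it. Both comparisons use the same EV libraries. The share of all genes called with both constructs was not computed, so these joint counts are only a description. NR2F1-AS1, named for the orphan nuclear receptor NR2F1, was at 134.5, 119.7 and 157.4 normalised reads in the EV libraries, 44.6, 41.3 and 45.7 with KD 86, and 10.5, 23.1 and 29.5 with KD 87. The 3 groups did not overlap. It fell 3.06-fold with KD 86 (adjusted p = 0.00617) and 6.74-fold with KD 87 (adjusted p = 0.0025), and the constructs differed 2.20-fold (adjusted p = 0.039, lost without EV replicate 1, any 1 KD 86 library or KD 87 replicate 1 or 2, at 0.0549 to 0.108). NR2F1 itself fell 2.80-fold and 4.78-fold (adjusted p = 0.00641 and 0.00383). TMPO-AS1 fell 2.59-fold with KD 86 (adjusted p = 0.00202) and 2.44-fold with KD 87 (adjusted p = 0.00995), and TMPO, which encodes the lamina-associated LAP2 proteins, had log2 fold changes of -0.59 and -1.07 (adjusted p = 0.0733 and 0.019, the first 0.0346 with the block). MMP24-AS1, now MMP24OS, rose 2.25-fold and 2.12-fold, from 746 ± 168 to 1651 ± 43.7 and 1568 ± 274 (adjusted p = 0.00235 and 0.0121).
LBX2-AS1 and TPT1-AS1 went opposite ways with the constructs, as did 7 members with the block, NEAT1 among them. The share of all genes with opposite calls was not computed. LBX2-AS1 was at 182, 158 and 149 in the EV libraries, 46.5, 96.6 and 89.1 with KD 86, and 491, 362 and 290 with KD 87. It was 2.19-fold lower with KD 86 and 2.28-fold higher with KD 87 (adjusted p = 0.0163 and 0.0337), and the constructs differed 4.99-fold (adjusted p = 6.13e-04). TPT1-AS1 fell 1.86-fold and rose 2.02-fold (adjusted p = 0.0218 and 0.0338). TMPO-AS1, MMP24-AS1, LBX2-AS1 and TPT1-AS1 were picked out for these patterns after their values were seen.

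KD 87 also moved antisense RNAs that were not called with KD 86. PAX8-AS1 was at 37.8, 61.2 and 73.3 in the EV libraries, 19.4, 50.1 and 52.8 with KD 86, and 160, 223 and 167 with KD 87. It rose 3.23-fold with KD 87 (adjusted p = 0.0249), a call lost without EV replicate 1 (0.101), KD 87 replicate 1 (0.083) or KD 87 replicate 2 (0.0951). PAX8, whose product is a transcription factor of thyroid and kidney, fell 6.36-fold with KD 86 (adjusted p = 6.1e-04) and its KD 87 value was 0.88 on the log2 scale (adjusted p = 0.156, or 0.0296 with the block). ARHGAP5-AS1, of 1 exon, rose 3.32-fold with KD 87, from 87.6 ± 31.7 to 285 ± 71.7 (adjusted p = 0.0136, lost without KD 87 replicate 1 at 0.0757). With KD 86 it stood at 147 ± 52.9 (adjusted p = 0.122, or 0.0369 with the block). ARHGAP5, which encodes a GTPase-activating protein, rose 3.24-fold with KD 86 and 2.39-fold with KD 87 (adjusted p = 0.0014 and 0.0197).
PRKCQ-AS1 was at 90, 42.9 and 95.9 in the EV libraries, 63, 50.1 and 69.2 with KD 86, and 8.41, 16.3 and 32.6 with KD 87. It fell 4.14-fold with KD 87 (adjusted p = 0.0222), a call lost without EV replicate 1 or 3 or KD 87 replicate 1 or 2 (adjusted p = 0.0651 to 0.0924). It was also below KD 86, by 1.80 on the log2 scale (adjusted p = 0.0181), with no call without KD 86 replicate 1 or 3 or KD 87 replicate 1 or 2 (0.0502 to 0.0628). PRKCQ, a protein kinase C gene, had log2 fold changes of -0.60 with KD 87 against EV (adjusted p = 0.143) and -0.27 with KD 87 against KD 86 (adjusted p = 0.458). FGD5-AS1, among the most abundant of the class, was at 1698, 2168 and 2155 in the EV libraries, 2393, 2267 and 2643 with KD 86, and 1364, 1395 and 1348 with KD 87. It was 1.77-fold lower with KD 87 than with KD 86 (adjusted p = 0.00542), and against EV its log2 fold changes were 0.28 and -0.54 (adjusted p = 0.211 and 0.0675, the second 0.0157 with the block).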

How the data were processed

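Deposited values are a score, the reads of each library scaled and rounded to whole numbers by the authors. The submitters' processing notes name STAR, featureCounts, Subread, edgeR and hg19, with no versions, and whether counting used strand is not given in the sources used here. The value of 1 read was recovered per library from the spacing of the deposited scores, and all 9 libraries were rescaled together by the TMM formula (30% and 5% trimming). Limma 3.58.1 in R 4.3.3 was fitted to log2(value + 1) of 13825 genes, with 1 coefficient per group, 6 residual degrees of freedom and a variance trend. Tests were two-sided, with Benjamini-Hochberg adjusted p under 0.05 called. Fold changes are on the log2(value + 1) scale, which understates those of low genes. The test was checked on simulated data with independent libraries. The simulation held neither the shared deviations of same-numbered libraries nor the length trend, so it cannot show how the test behaves under them.

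Libraries of the same number correlated in their deviations from the group mean (r = 0.208 to 0.745 over 13311 genes, other pairs -0.66 to 0.151). Deviations within a group sum to 0, which by itself pushes the other pairs below same-numbered ones that correlate. The numbers may thus pair the samples, and a replicate block was fitted as an alternative. Calls given without a setting are from the fit without the block, which leaves such pairing out. The other alternatives are in the closing section.

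Members and lists were chosen with earlier results of these data known. Named genes are MALAT1, NEAT1, GAS5, KCNQ1OT1 and PURPL, then per class and construct the 4 largest called changes with a mean of at least 20 and groups that do not overlap, the 6 largest differences between constructs, and the 2 most abundant of each class, with sense partners and up to 4 list genes of smallest adjusted p. Lengths, exons and gene types are from GENCODE release 29. In it 13 members are typed protein_coding. Start regions are from RefSeq (GRCh38.p14) and matched 213 of 269 members; the files are on hg19 and no coordinates are taken from them.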

Additional observations from a re-analysis of the deposited data

Results flagged for a closer look

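For 20 of the named genes, the difference between KD 87 and KD 86 itself passed the limma test (adjusted p under 0.05), which is why they are listed here. KD 87 was higher for 15 of them, on the log2 scale by 2.89 for NEAT1, 2.47 for LINC00176, 1.96 for LINC00326, 2.34 for LINC00938, 1.99 for LINC00467, 1.29 for LINC00984, 1.12 for LINC00941 (0.905 and not called with the length trend removed) and 2.47 for LINC00657 (NORAD). It was higher by 0.93 for SNHG17, 1.97 for ATP6V0E2-AS1, 2.15 for FBXL19-AS1, 2.53 for PAXIP1-AS1, 2.54 for SRP14-AS1, 2.25 for PAX8-AS1 and 2.66 for ZEB1-AS1. The difference was -1.23 for MIR22HG, -1.54 for MIR31HG, -1.14 for NR2F1-AS1, -1.80 for PRKCQ-AS1 and -0.83 for FGD5-AS1. Of all genes tested, 25.6% were called in this comparison. Many named genes were chosen for large called changes against EV or for large differences between the constructs. Passing this test was thus favoured by the choice, so the number listed cannot be compared with that percentage.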

How the results depend on the processing

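Counts of members are given with the percentage of all genes called in the same fit. Against the 92 members called with KD 86 (35.7% of all genes), the replicate block gave 147 (55.3%) and the block with the length trend removed 150 (54.9%). Leaving out 1 library gave 66 to 115 (22.1% to 43.5%). Against 14 with KD 87 (10.3%), the block gave 61 (31.0%), the length trend removed 26 (14.7%) and both together 66 (34.8%), and leaving out 1 library gave 2 to 26 (2.67% to 18.4%). Against 94 between the constructs (25.6%), the block gave 142 (44.1%), and leaving out 1 library gave 66 to 102 (16.0% to 30.3%). With the length trend removed, 31.8% of the members called with KD 86 were higher, against 18.5% otherwise. Other scalings, pseudocounts, a mean of at least 20 and no variance trend left each of the 3 counts within 1.5 times.

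Of 99 values of named genes, 44 were called, and none of these changed sign. The block ended 0 of these calls and added 17, and 15 calls were lost under at least 1 alternative. With the length trend removed, with or without the block, these uncalled values changed sign: KD 87 against KD 86 for GAS5 (-0.205) and KCNQ1OT1 (-0.337), KD 86 against EV for LINC00941 (0.224) and PRKCQ-AS1 (0.175), and KD 87 against EV for MALAT1 (-0.131), SNHG5 (0.015) and FAM211A-AS1 (0.033). MALAT1 with KD 87 was -0.002 with median-of-ratios scaling. The length trend removed without the block ended the LINC00941 call between the constructs (0.905). It added calls with KD 86 for PURPL (LINC01021; 1.017), SNHG6 (0.702) and ARHGAP5-AS1 (0.999), and with KD 87 for SNHG10 (-1.346), MIR22HG (0.741) and FGD5-AS1 (-0.601).

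Leaving out 1 library also turned uncalled values. With KD 86 the ranges were -0.369 to 0.79 for GAS5, -0.497 to 1.281 for MALAT1, -0.229 to 0.181 for LINC00984 and -0.47 to 0.501 for SNHG6. With KD 87 they were -0.305 to 0.853 for GAS5, -0.784 to 0.996 for MALAT1, -0.675 to 0.218 for LINC00176, -1.08 to 0.184 for LINC00326, -0.047 to 0.437 for LINC00938 and -0.639 to 0.44 for LINC00467. They were -0.945 to 0.324 for SNHG5, -0.838 to 0.133 for SNHG6, -0.026 to 0.336 for PAXIP1-AS1, -0.234 to 0.653 for SRP14-AS1 and -0.63 to 0.247 for FAM211A-AS1. Between the constructs they were -0.218 to 0.316 for GAS5 and -1.077 to 0.367 for MALAT1. The cause of these changes was not tested. The median member level was 62.2 normalised reads, and no detection limit was computed.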
